A study of Mus musculus with 18 samples.

Results

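The 45 genes described here encode splicing factors, heterogeneous nuclear ribonucleoproteins (hnRNPs) and the kinases that phosphorylate SR proteins. They were chosen by symbol from a count table of 55487 mouse genes. They comprise 12 serine- and arginine-rich (SR) and SR-like proteins, 4 CDC2-like kinases (Clk1 to Clk4), 15 hnRNPs, 8 components of small nuclear ribonucleoproteins (snRNPs) or of branch site recognition, and 6 other coactivators and helicases. Their RNA was sequenced from the nuclei and the cytoplasm of BV2, an immortalised line of mouse microglia. Cells had received 10 µM oxyhemoglobin, the oxygen-carrying form of the blood pigment, for 12 or 24 h, or were harvested untreated at 0 h. The 6 groups were nuclear and cytoplasmic RNA at each of the 3 times, with 3 libraries each. All groups were the same cell line in the same serum-containing medium, and no group left untreated for 12 or 24 h was analysed here, so hours in culture and oxyhemoglobin cannot be told apart. BV2 is 1 transformed line, and the labels do not say whether the 3 libraries of a group came from separate cultures.

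SR proteins bind exonic enhancers and help the spliceosome choose splice sites, and many hnRNPs counteract them or coat nascent RNA. Clk kinases phosphorylate SR proteins and release them from nuclear speckles. Genes of this class are known for controlling their own splicing. Many of them keep introns or include exons with a premature stop codon, and such transcripts are often held in the nucleus or degraded. Mouse Clk1 is a textbook case, in which transcripts that retain the introns around exon 4 stay in the nucleus and can be spliced later.

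Annotated transcripts of these genes carry such introns. Counted here were introns between coding exons of the principal transcript that a transcript of the retained-intron class spans whole, with 10 bases on each side. In GENCODE M21 on GRCm38, 23 of the 45 genes had at least 1 such intron, with 43 in all. Other transcripts of that class were not counted. All 43 began with GT and ended with AG. Exon 4 measured 91 bases in Clk1, 85 in Clk2, 97 in Clk3 and 91 in Clk4, and intron 4 was retained in an annotated transcript of each. The last 10 exonic and first 20 intronic bases at that donor are shown because they border the exon known to be skipped in truncated forms of these kinases, with the GT of the intron in capitals and all sequences taken from the GENCODE M21 transcripts, 5′ to 3′:
Clk1: agtgcaagatGTatagaatatttttcaaca
Clk2: caagagcgatGTacaagccaaatcgtaaca
Clk3: caagagcgatGTacagccacctttcgtaaa
Clk4: agagcaagatGTatagaatatttttcaaca
The Clk1 and Clk4 windows were identical at 29 of 30 positions, the Clk2 and Clk3 windows at 19 of 30. All 10 exonic bases matched between Clk2 and Clk3, and 9 of 10 between Clk1 and Clk4. Pairs across these 2 groups matched at 14 or 15 positions.

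Of 3 retained introns the whole sequence is shown, because every base of them lay in exactly 1 annotated transcript, the property described next. The first is intron 8 of Clk4 (chr11:51275865-51276117, plus strand, 253 bases). The second is intron 4 of Srsf5 (chr12:80947595-80947795, plus strand, 201 bases). The third is intron 3 of Snrnp70, which encodes the U1 snRNP protein that contacts SR proteins at the 5′ splice site (chr7:45392134-45392262, minus strand, 129 bases). GT and AG at the intron ends are in capitals:
Clk4 intron 8: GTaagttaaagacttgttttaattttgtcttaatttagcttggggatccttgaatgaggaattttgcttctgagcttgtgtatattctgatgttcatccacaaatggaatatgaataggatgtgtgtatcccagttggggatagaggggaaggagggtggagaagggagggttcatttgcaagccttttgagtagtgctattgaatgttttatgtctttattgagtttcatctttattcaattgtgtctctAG
Srsf5 intron 4: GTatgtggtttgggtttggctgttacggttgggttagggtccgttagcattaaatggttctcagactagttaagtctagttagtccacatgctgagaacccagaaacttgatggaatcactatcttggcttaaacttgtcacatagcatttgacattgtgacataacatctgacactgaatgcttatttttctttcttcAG
Snrnp70 intron 3: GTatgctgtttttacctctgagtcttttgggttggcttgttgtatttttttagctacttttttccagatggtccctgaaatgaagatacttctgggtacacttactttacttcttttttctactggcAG

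The deposited counts followed how much of a gene is held by exactly 1 annotated transcript. Across all 311 protein-coding genes in which every exonic base is shared by at least 2 annotated transcripts, 305 (98.1%) had no count in any group. A count was missing for 68.6% of 420 genes with 1 to 50 bases held by exactly 1 transcript (single-transcript bases), for 50.7% of 1587 genes with 51 to 250, for 35.2% of 5701 with more than 250 and up to 1000, and for 18.3% of 13955 with more than 1000. Prpf8, the large U5 snRNP protein at the heart of the spliceosome, had 23 single-transcript bases of 7461 exonic bases. Its scaled counts per 1000000 (CPM) were 0.242, 0.324 and 0.341 in nuclei at 0, 12 and 24 h, and it had no count in any cytoplasmic group. A count of 0 allows up to 3 reads over the group, or 0.134, 0.181 and 0.154 CPM per total counts at 0, 12 and 24 h. Srsf9, an SR protein with 221 such bases of 1653, stayed at 0.0606 to 0.954 CPM in nuclei and 0.0453 to 1.25 CPM in cytoplasm. No ratio is given for either gene. How reads were assigned to genes with several transcripts is not stated in the sources used here.

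For most of the 45 genes these single-transcript bases lay outside the spliced principal mRNA. They lay in introns of the principal transcript for 99.9% of their length in Tra2a, 99.7% in Rbm39, 99.2% in Clk2, 98.7% in Clk4, 98.7% in Snrnp70 and 97.0% in Srsf5. In 9 genes at least 50% of these bases lay in exons of the principal transcript. These were Srsf1 (88.2%), Srsf6 (65.3%), Srsf9 (98.6%), Srsf10 (70.0%), Hnrnpa0 (100.0%), Hnrnpab (63.4%), Hnrnpu (60.7%), Sf3a1 (74.8%) and Luc7l (75.8%). Hnrnpa0, which has 1 exon and 1 annotated transcript of 2678 bases, was the only one of the 45 with no exonic base outside this class. Exonic bases shared with another annotated gene on either strand reached 43.02% in Srsf4, 29.1% in Hnrnpab, 26.5% in Hnrnpf, 25.3% in Srsf2, 20.7% in Ptbp1, 15.2% in Clk3 and 14.7% in Hnrnpm. The strand setting and the treatment of reads that match several places are not stated in the sources used here, so these genes, and Hnrnpa1 and Hnrnpa3 with their processed pseudogenes, are uncertain.

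The 3 libraries of a group summed to 14652566, 15899566 and 16031875 counts in nuclei at 0, 12 and 24 h and to 22379595, 16537318 and 19537309 in cytoplasm. The 45 genes held 0.970%, 0.754% and 0.658% of the nuclear counts and 0.519%, 0.449% and 0.438% of the cytoplasmic counts, while 1 unnamed gene, ENSMUSG00000118642, held 18.6%, 16.3% and 22.1% of the nuclear counts. All 10 microglial or macrophage markers had reads, with summed levels of 454 to 625 CPM in nuclei and 227 to 355 CPM in cytoplasm. Most of these sums came from 1 gene per fraction. At 0 h Ptprc was at 531 CPM in nuclei and Spi1 at 193 CPM in cytoplasm. Csf1r, Itgam and Cx3cr1 stayed at or below 11.9, 10.8 and 5.21 CPM. Aif1 stayed at or below 1.39 CPM and C1qa at or below 0.226 CPM in every group. Markers of astrocytes, neurons, oligodendrocytes, endothelium, fibroblasts and erythroid cells each summed to at most 13.8 CPM, and Aqp4, Aldh1l1, Syt1, Snap25, Mog, Dcn, Hba-a1 and Hba-a2 were at 0 in every group. The fibroblast collagens Col1a1 and Col3a1 reached 2.81 and 2.50 CPM in cytoplasm at 12 h against 0 CPM at 0 h, and their part in the results was not tested. Malat1, a nuclear RNA, was 3.02 log2 units higher in nuclei than in cytoplasm at 0 h, and the mitochondrial mt-Co1 had a log2 ratio of -5.01 and Actb, a cytoplasmic mRNA, of -3.79. Gapdh, another cytoplasmic mRNA, lay on the nuclear side at 1.54, 1.93 and 1.46 at 0, 12 and 24 h, and 2001 of its 4133 exonic bases were single-transcript.

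Only the authors' mean of the 3 libraries was analysed for each group, so no spread between libraries, p-value or test can be given. Ratios are log2 of scaled means, with a 95% interval that covers counting error only. A gene was called where the ratio reached 2-fold and the interval excluded 0. Of the 45 genes, 43 were compared in nuclei and between fractions, and 42 in cytoplasm. Prpf8 and Srsf9 were below the limit on low counts throughout, and Hnrnpf, with 99 single-transcript bases, was below it in cytoplasm. In such bulk RNA, fewer cells of a kind and less RNA per cell cannot be told apart.

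In nuclei most of these genes had ratios below 0 after oxyhemoglobin, few of them past 2-fold. The SR proteins all lay on this side. All 11 that were compared had log2 ratios below 0 at 12 h (median -0.36, lowest -0.76) and at 24 h (median -0.27, lowest -0.98). Not every interval excluded 0, as for Srsf2 at 12 h (-0.02, -0.09 to 0.04). The other scalings also gave 11 below 0. They moved the median over all genes down or hardly at all, so they could hardly have given another sign. Over the 43 genes, 30 lay below 0 at 12 h and 37 at 24 h, with medians of -0.11 and -0.27. These medians were -0.33 and -0.57 under total counts and -0.39 and -0.80 on the log2(TPM + 1) scale. The same settings moved the median over all genes by -0.22 and -0.30 and by -0.26 and -0.48, so much of that difference is shared by all genes. With the main scaling, 8615 of all 17295 genes compared lay below 0 at 12 h and 8937 at 24 h, with medians of 0.00 and -0.02. Over protein-coding genes the medians were 0.05 and 0.02. Both comparisons share the 0 h group.

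At 12 h, 1 of the 43 genes was called lower and 0 were called higher, while 6.64% of all genes compared were called lower and 7.92% higher. At 24 h, 3 were called lower and 1 higher, against 5.75% lower and 7.88% higher over all genes. The shares of the 43 genes were at most 6.98%, near or under those of all genes. Among protein-coding genes, 4.97% were called lower and 7.15% higher at 12 h, and 4.04% and 6.82% at 24 h. The share of the 43 called lower at 24 h, which rests on 3 genes, lay above that of protein-coding genes. Scaling by total counts alone moved the median over all genes by -0.22 at 12 h and -0.30 at 24 h and changed the share of higher genes among all calls to 31.9% and 27.5%, against 54.4% and 57.8%. On the log2(TPM + 1) scale these were -0.26 and -0.48, and 32.8% and 18.6%.

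Hnrnph1, an hnRNP that binds G-rich RNA and steers exon choice, showed the largest nuclear difference. Its nuclear level was 62.0, 23.5 and 17.2 CPM at 0, 12 and 24 h. The log2 ratio was -1.40 (95% counting interval -1.58 to -1.23) at 12 h and -1.85 (-2.05 to -1.65) at 24 h. In cytoplasm it was read at 1.95, 1.56 and 2.005 CPM, so the difference past 2-fold was seen in nuclear counts. The cytoplasmic levels rest on mean counts of 14.3, 8.33 and 13.7, too few to show that they did not differ. Of its 814 single-transcript bases, 61.1% lay in introns of the principal transcript and 3.93% in its exons.

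Clk1 was the kinase with the largest difference. It was read at 277, 165 and 132 CPM in nuclei at 0, 12 and 24 h, which gave log2 ratios of -0.75 (-0.82 to -0.68) and -1.07 (-1.15 to -0.99), the second past 2-fold. In cytoplasm it was read at 8.96, 7.37 and 6.80 CPM, with ratios of -0.28 (-0.62 to 0.05) and -0.40 (-0.72 to -0.08). None of the single-transcript bases of Clk1 lay in exons of its principal transcript. Clk4 was at 110, 93.7 and 77.2 CPM in nuclei and 10.9, 14.8 and 12.7 CPM in cytoplasm, with a nuclear ratio of -0.52 (-0.62 to -0.41) at 24 h. Both genes were lower in nuclei at 24 h beyond counting error, and Clk1 past 2-fold.

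The other kinases hardly moved in nuclei. Clk2 was at 54.3, 52.3 and 53.4 CPM in nuclei and 3.98, 5.06 and 5.04 CPM in cytoplasm at 0, 12 and 24 h. Clk3 was at 39.98, 40.3 and 35.5 CPM in nuclei and 17.9, 15.9 and 13.5 CPM in cytoplasm. The nuclear 24 h ratios were -0.03 (-0.17 to 0.11) for Clk2 and -0.17 (-0.34 to -0.00) for Clk3. The differences between the kinases were not tested.

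Among SR proteins, Srsf3, Srsf5 and Srsf10 showed the lowest nuclear ratios at both times. Srsf5 was at 96.7, 59.7 and 49.1 CPM in nuclei at 0, 12 and 24 h, with ratios of -0.70 (-0.81 to -0.58) and -0.98 (-1.11 to -0.85), the second just short of 2-fold. Srsf3, which promotes its own alternative splicing and the export of mRNA, was at 228, 135 and 148 CPM, with ratios of -0.76 (-0.84 to -0.68) and -0.63 (-0.70 to -0.55). Srsf10, a splicing repressor when dephosphorylated, had ratios of -0.57 (-0.69 to -0.45) and -0.68 (-0.81 to -0.56). These 3 genes were lower at both times beyond counting error and none passed 2-fold.

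The ratios of the remaining SR and SR-like genes lay nearer 0. Srsf1, the founding SR protein, was at 233, 193 and 221 CPM in nuclei at 0, 12 and 24 h, and Srsf2, a speckle marker, at 228, 224 and 173 CPM. Srsf4 was at 13.2, 10.2 and 12.9 CPM, and Srsf6 at 318, 310 and 285 CPM. Srsf7, a paralogue of Srsf3 that also takes part in mRNA export, was at 34.9, 27.1 and 29.0 CPM. Srsf11, Tra2a and Tra2b were the others compared. The 24 h ratios of these 8 genes ran between -0.48 for Srsf11 and -0.04 for Srsf4.

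A few genes lay above 0 in nuclei. Hnrnpa0, an hnRNP that binds AU-rich elements of inflammatory mRNAs in macrophages, was at 61.1, 113 and 167 CPM in nuclei at 0, 12 and 24 h. Its ratio was 0.89 (0.77 to 1.00) at 12 h and 1.45 (1.34 to 1.56) at 24 h, the only one of the 43 called higher, and 0.82 on the log2(TPM + 1) scale at 24 h, under 2-fold. Sf3a1, a subunit of the U2 snRNP, was at 82.0, 142 and 142 CPM, with a ratio of 0.80 (0.70 to 0.90) at both times. Both genes had most of their single-transcript bases in exons of the principal transcript, a class of 8 compared genes of which 3 lay above and 5 below 0 at 12 h, and 4 and 4 at 24 h. The other nuclear ratios furthest above 0 were 0.55 for U2af2 and 0.55 for Hnrnpa1 at 12 h, and 0.40 for Hnrnpa1 and 0.25 for Hnrnpu at 24 h. U2af2 binds the polypyrimidine tract, Hnrnpa1 antagonises SR proteins and Hnrnpu is a chromatin-associated scaffold protein.

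Hnrnpc, which binds uridine tracts of nascent RNA, had few reads. It was at 7.51, 4.48 and 3.75 CPM in nuclei, with ratios of -0.75 (-1.19 to -0.31) at 12 h and -1.003 (-1.49 to -0.53) at 24 h (at the 2-fold limit). In cytoplasm it was at 1.58, 2.31 and 0.929 CPM. The cytoplasmic ratio of 24 h to 12 h was -1.32 (-2.20 to -0.48), the only call among the 42 genes in that comparison. It had 281 single-transcript bases of 4322 exonic bases, 98.9% of them in principal introns.

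**Figure D1:**
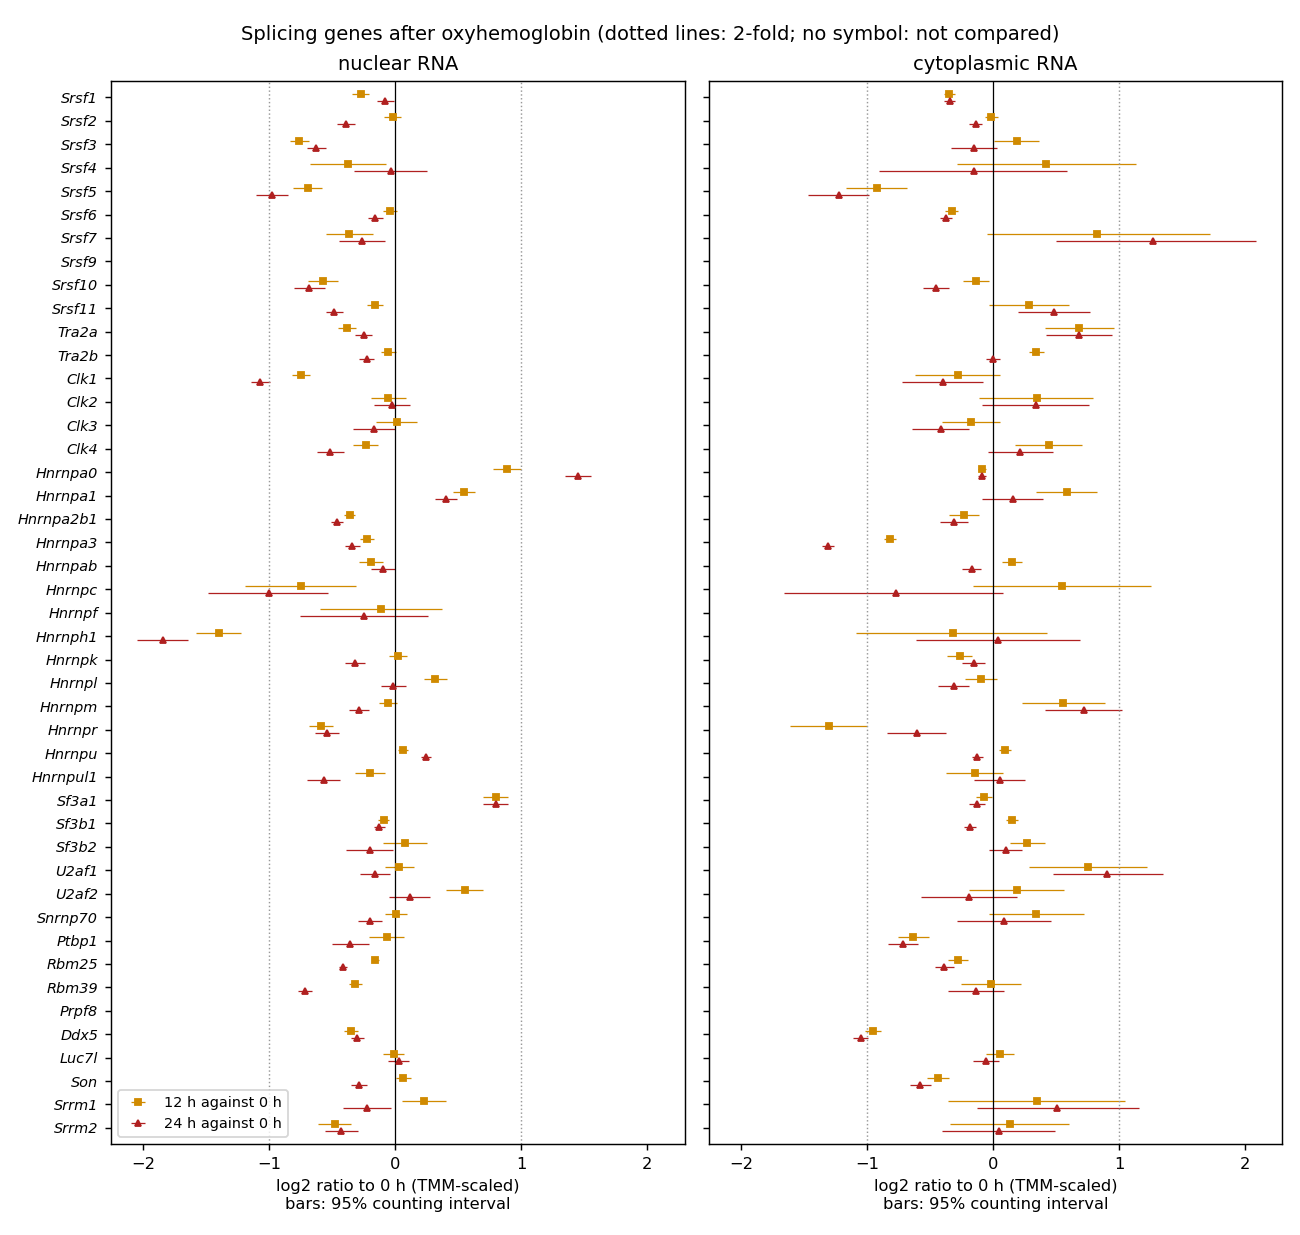
Log2 ratio at 12 h (squares) and 24 h (triangles) of oxyhemoglobin to 0 h, for the 43 genes compared in nuclear RNA on the left and the 42 compared in cytoplasmic RNA on the right, with 95% counting intervals. All 11 SR protein genes compared lie left of 0 in nuclei, Hnrnph1 lies furthest left and Hnrnpa0 furthest right.

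Between 12 and 24 h the nuclear levels of these genes changed little. None of the 43 was called in either direction at 2-fold, nor at 1.5-fold, while 1.83% of all genes compared were called higher and 1.19% lower. The median ratio was -0.17, against -0.02 over all genes. The ratios furthest above 0 were 0.56 for Hnrnpa0, 0.34 for Srsf4, 0.20 for Srsf1 and 0.18 for Hnrnpu, and those furthest below were -0.45 for Hnrnph1, -0.45 for Srrm1, -0.44 for U2af2 and -0.40 for Rbm39. Srrm1 and Rbm39 are splicing coactivators with arginine-serine domains. Under total counts 44.2% and on the log2(TPM + 1) scale 34.5% of all calls were higher, against 60.7% with the scaling used, and the second moved the median over all genes by -0.24.

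In cytoplasm the genes split evenly at 12 h and leaned lower at 24 h. At 12 h, 21 of 42 lay above 0 and 21 below, with a median of 0.02, against -0.04 over all 11751 genes compared. That median was -0.01 under total counts and -0.66 on the log2(TPM + 1) scale. At 24 h, 15 lay above 0 and 27 below, with a median of -0.14 against -0.06, and of -0.06 under total counts and -0.64 on the log2(TPM + 1) scale. At 12 h, 1 of the 42 genes was called lower and 0 higher, against 8.99% and 11.7% of all genes compared. At 24 h, 3 were called lower and 1 higher, against 6.71% and 10.4%. The shares of the 42 genes were at most 7.14%, near or under those of all genes. Among protein-coding genes, 9.33% were called lower and 7.65% higher at 12 h, and 7.32% and 6.38% at 24 h. On the log2(TPM + 1) scale the median of all genes moved by -0.58 at 12 h and -0.42 at 24 h, and the share of higher genes among all calls was 23.5% and 35.5%, against 56.5% and 60.7%.

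Hnrnpa3, a relative of hnRNP A2 that takes part in RNA transport, had the lowest cytoplasmic ratio at 24 h. It was at 589, 333 and 237 CPM in cytoplasm at 0, 12 and 24 h, with ratios of -0.82 (-0.87 to -0.77) and -1.31 (-1.36 to -1.26). In nuclei it was at 355, 304 and 280 CPM, a ratio of -0.34 (-0.40 to -0.28) at 24 h. The cytoplasmic level was lower at each later time, and the nuclear ratios lay nearer 0.

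Ddx5, an RNA helicase that acts in splicing and transcription, was at 334, 172 and 161 CPM in cytoplasm, with ratios of -0.96 (-1.02 to -0.89) at 12 h and -1.05 (-1.11 to -0.99) at 24 h. Under total counts the second was -0.97, short of 2-fold. In nuclei it was at 404, 317 and 328 CPM, with a ratio of -0.30 (-0.35 to -0.25) at 24 h. Most of the cytoplasmic difference was present by 12 h.

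Srsf5 was lower in both fractions. Its cytoplasmic levels were 22.9, 12.1 and 9.78 CPM at 0, 12 and 24 h, with ratios of -0.92 (-1.17 to -0.68) and -1.23 (-1.47 to -0.99). These lie beside the nuclear ratios of -0.70 and -0.98. It had 678 single-transcript bases, 97.0% of them in introns such as intron 4 above.

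Hnrnpr, an hnRNP known from axonal mRNA transport, was lowest in cytoplasm at 12 h. It was at 18.2, 7.37 and 12.0 CPM, with ratios of -1.30 (-1.61 to -1.004) at 12 h and -0.60 (-0.84 to -0.37) at 24 h. On the log2(TPM + 1) scale the 12 h ratio was -0.84. The 24 h level lay between those at 12 and 0 h.

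Srsf7 was the only one of the 42 called higher in cytoplasm, and it had few reads there. Its mean counts were 7, 9 and 15.7 per library at 0, 12 and 24 h, or 0.951, 1.69 and 2.30 CPM. The ratio was 0.83 (-0.05 to 1.72) at 12 h and 1.27 (0.50 to 2.09) at 24 h. The interval at 24 h reaches down to 0.50, well under 2-fold.

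Other ratios furthest from 0 in cytoplasm did not pass the call. U2af1, which reads the AG of the 3′ splice site, had 0.75 (0.29 to 1.22) at 12 h and 0.91 (0.48 to 1.35) at 24 h. Tra2a, an SR-like activator of exons, had 0.69 (0.41 to 0.96) and 0.68 (0.42 to 0.95). Hnrnpm had 0.72 (0.42 to 1.02) at 24 h, Hnrnpa1 0.58 (0.34 to 0.82) at 12 h and Hnrnpc -0.77 (-1.66 to 0.07) at 24 h. Of the single-transcript bases, 92.4% lay in principal introns in U2af1, 99.9% in Tra2a and 93.2% in Hnrnpm.

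The cytoplasmic levels of the other SR proteins at 0, 12 and 24 h followed no common course. Srsf1 was at 478, 376 and 376 CPM, Srsf2 at 318, 315 and 289 CPM, and Srsf3 at 25.6, 29.2 and 23.1 CPM. Srsf4 was at 1.63, 2.19 and 1.47 CPM, and Srsf6 at 371, 296 and 287 CPM. Srsf1 and Srsf6, whose single-transcript bases lie mostly in principal exons, were lower at both times beyond counting error. Their 24 h ratios were -0.34 (-0.39 to -0.30) and -0.37 (-0.42 to -0.32). Of the 11 SR proteins compared, 6 lay above 0 at 12 h and 4 at 24 h, while on the log2(TPM + 1) scale 0 and 1 of the 8 compared there did.

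From 12 to 24 h, besides Hnrnpc, the cytoplasmic ratios furthest below 0 were -0.58 for Srsf4, -0.49 for Hnrnpa3 and -0.43 for Hnrnpa1. Those furthest above were 0.70 for Hnrnpr, 0.45 for Srsf7, 0.36 for Hnrnph1 and 0.20 for Hnrnpul1. Over all genes compared, 2.9% were called higher and 1.89% lower. The 42 genes had a median of -0.11, against -0.04 over all genes, and of 0.00 under total counts, which moved the median over all genes by 0.11 and the share of higher genes among calls to 73.4%, against 60.6%. On the log2(TPM + 1) scale the median of the genes was 0.05, and that of all genes moved by 0.17.

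**Figure D2:**
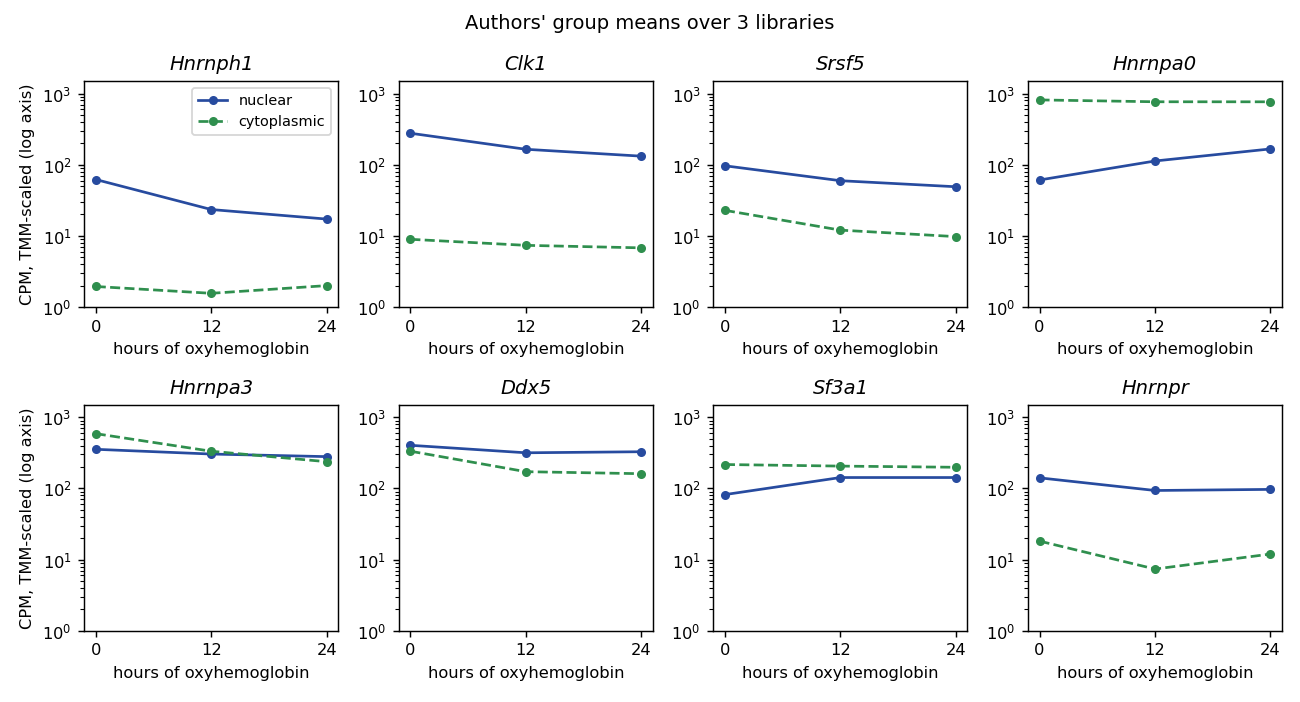
Scaled counts per 1000000 (CPM, log axis) of 8 genes at 0, 12 and 24 h of oxyhemoglobin in nuclear (solid) and cytoplasmic (dashed) RNA, each scaled within its fraction, so that the 2 lines of a panel show courses over time and not a ratio. Hnrnph1 and Clk1 fell in nuclei and Hnrnpa3 and Ddx5 in cytoplasm, while nuclear Hnrnpa0 rose to 167 CPM at 24 h.

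Between the fractions the 43 genes spanned a wide range, and most lay on the same side at every time. At 0 h, 22 were called higher in nuclei and 10 lower, against 47.5% higher and 32.7% lower among 17902 genes compared. At 12 h, 22 were higher and 9 lower, against 46.4% and 29.3%. At 24 h, 22 were higher and 9 lower, against 45.7% and 28.9%. The share called higher, 51.2% at each time, is near that of all genes and above the 34.5%, 35.3% and 34.3% of protein-coding genes, and medians of 1.02, 1.11 and 1.18 compare with 0.78, 0.81 and 0.75. Over protein-coding genes the medians were -0.38, -0.09 and -0.14. Scaling by total counts moved the median over all genes by 1.41, 1.10 and 0.96 and the share of higher genes among calls to 78.9%, 80.3% and 78.9%, against 59.2%, 61.3% and 61.3%. The log2(TPM + 1) scale gave shares of 71.3%, 79.4% and 70.9% and moved the median by 0.27 and 0.21 at 0 and 12 h, and median-of-ratios size factors moved it by -0.25, -0.30 and -0.27.

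Called higher in nuclei at all 3 times were 21 genes. They were the SR or SR-like Srsf3, Srsf4, Srsf7, Srsf11 and Tra2a, the kinases Clk1, Clk2 and Clk4, and the hnRNPs Hnrnpa1, Hnrnpa2b1, Hnrnpf, Hnrnph1, Hnrnpm and Hnrnpr. The others were U2af1, U2af2, Snrnp70, Rbm25, Rbm39, Srrm1 and Srrm2. At single times 45.7% to 47.5% of all genes compared were called higher and 28.9% to 32.7% lower. Their share called at all 3 times is not given here, so the counts at all 3 times have no such measure beside them. The annotation holds a retained-intron transcript for 18 of the 21, for 5 of the 8 genes called lower at all 3 times and for all 14 genes in neither class. The median share of the single-transcript bases of the 21 in exons of the principal transcript was 1.02%, at most 21.3%.

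Clk1 illustrates the nuclear side. Scaled over all 6 groups, it was at 186 CPM in nuclei and 14.0 CPM in cytoplasm at 0 h, at 110 and 10.6 CPM at 12 h and at 88.4 and 10.1 CPM at 24 h. The log2 ratios were 3.73 (3.52 to 3.94), 3.39 (3.12 to 3.67) and 3.13 (2.88 to 3.39). Clk2 had 2.55, 2.27 and 2.25 and Clk4 2.12, 1.57 and 1.46. Clk3, with 17.7% of its single-transcript bases in principal exons against 0.811% for Clk2 and 1.21% for Clk4, was near 0 at -0.07 (-0.25 to 0.12), 0.25 and 0.25. At 0 h the intervals of the 4 kinases did not overlap, except that Clk4 (1.92 to 2.32) and Clk2 (2.23 to 2.88) met.

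The highest ratios at 0 h were 5.52 for Hnrnpf (3.00 to 10.84, on a mean of 0.333 cytoplasmic counts, 1 read in the group), 3.97 for Srsf7 (3.35 to 4.68), 3.77 for Hnrnph1 (3.33 to 4.25) and 3.74 for Srsf11 (3.53 to 3.97). At 12 h they were 3.43 for Srsf11, 3.39 for Clk1, 3.35 for Rbm39 and 3.10 for Snrnp70. At 24 h they were 3.13 for Clk1, 3.09 for Snrnp70, 3.02 for Rbm39 and 2.85 for Srsf11. The counting intervals of these 4 genes overlap their neighbours in the order at 24 h.

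Called lower in nuclei at all 3 times were 8 genes, Srsf1, Srsf2, Srsf6, Srsf10, Hnrnpa0, Hnrnpab, Sf3a1 and Sf3b2, with a median of 67.7% of their single-transcript bases in principal exons. For this count, too, the share of all genes called at all 3 times is not given. At 0, 12 and 24 h singly, 32.7%, 29.3% and 28.9% of all genes and 42.0%, 36.1% and 36.0% of protein-coding genes were called lower. Under total counts, and likewise on the log2(TPM + 1) scale, Hnrnpa0 alone was called lower at all 3 times. Of the 21 called higher, all 21 stayed so under total counts. On the log2(TPM + 1) scale 19 did. Hnrnph1 was compared there and was not called higher at all 3 times, and Hnrnpf was not compared there. At 0 h the total-count ratio was -0.84 for Srsf1 and -0.00 for Hnrnpab. Hnrnpa0 was lowest at each time. It was at 40.9 CPM in nuclei and 1273 CPM in cytoplasm at 0 h, at 75.7 and 1097 CPM at 12 h and at 112 and 1139 CPM at 24 h, with ratios of -4.96 (-5.05 to -4.87), -3.86 (-3.93 to -3.79) and -3.35 (-3.41 to -3.29). The next lowest were Sf3a1 (-2.63), Srsf1 (-2.26) and Hnrnpa3 (-1.95) at 0 h. At 12 h they were Srsf1 (-2.06), Sf3b2 (-1.66) and Hnrnpab (-1.63), and at 24 h Srsf1 (-1.92), Srsf2 (-1.89) and Sf3b2 (-1.82). Sf3b2 and Sf3a1 belong to the U2 snRNP.

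SR proteins lay on both sides. At 0, 12 and 24 h, Srsf3 had ratios of 1.93, 1.11 and 1.53, Srsf4 of 1.80, 1.12 and 1.98, Srsf5 of 0.86, 1.21 and 1.18, and Srsf7 of 3.97, 2.91 and 2.51. Srsf1 had -2.26, -2.06 and -1.92, Srsf2 -1.71, -1.59 and -1.89, and Srsf6 -1.44, -1.03 and -1.16. At most 21.3% of the single-transcript bases of the first 4 lay in principal exons, and 37.2% to 88.2% of those of the last 3. Under total counts the Srsf6 ratio at 12 h was 0.07 and the Srsf10 ratio at 0 h was 0.22, both on the other side of 0.

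**Figure D3:**
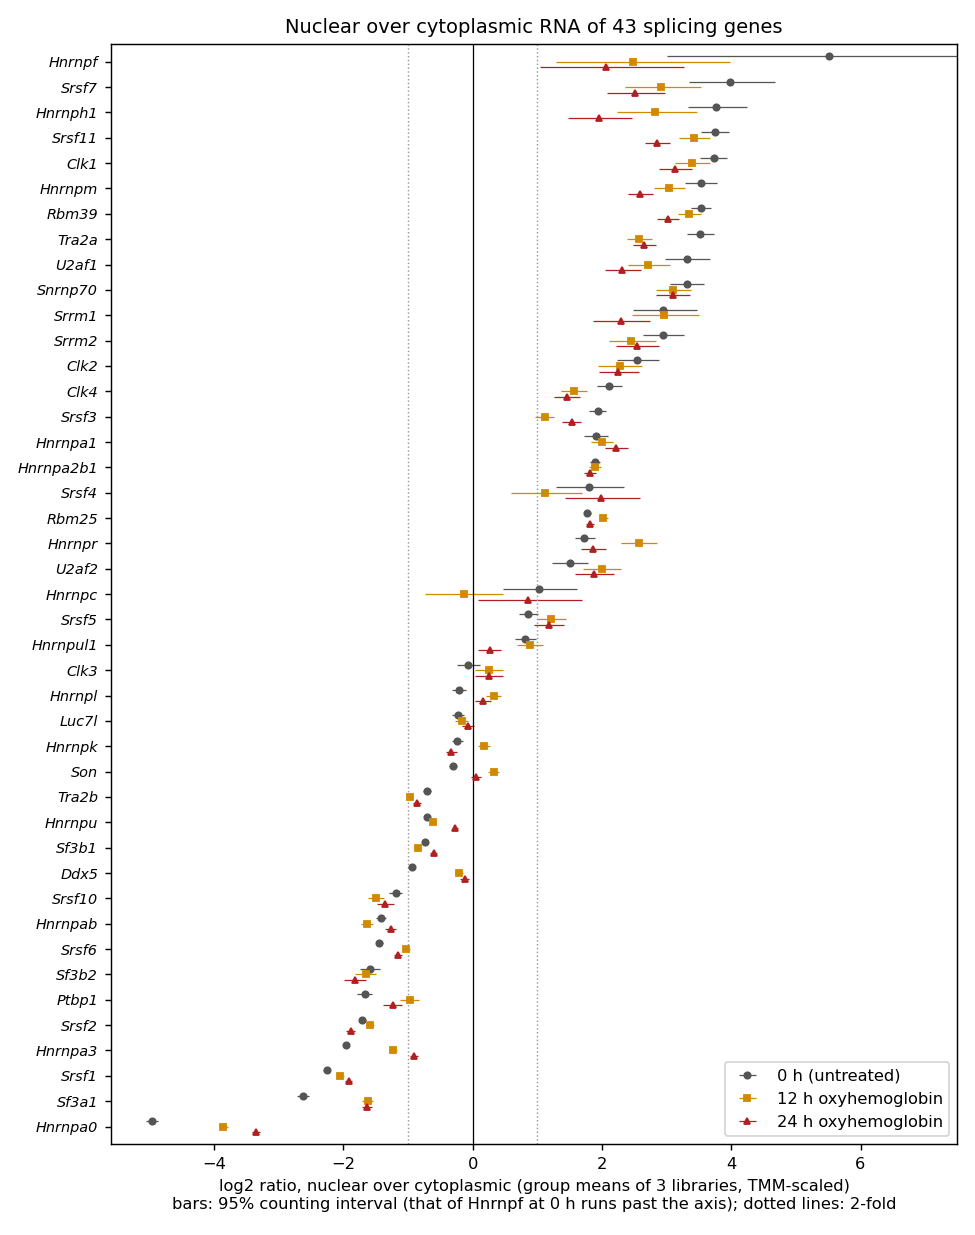
Log2 ratio of nuclear to cytoplasmic RNA of 43 genes at 0 h (circles), 12 h (squares) and 24 h (triangles), sorted by the value at 0 h, with 95% counting intervals. Values run down to -4.96 for Hnrnpa0, whose ratio moves right with time, and the ratios of Srsf7 and Hnrnph1 move left.

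The ratio went with the place of the single-transcript bases. The 8 genes compared that have at least 50% of their single-transcript bases in principal exons had medians of -1.43, -1.56 and -1.31 at 0, 12 and 24 h, with 6 called lower and 0 higher at each time. Under total counts the medians of these 8 were -0.02, -0.47 and -0.35, with 2, 1 and 1 called lower, and at 0 h 1 was called higher (Luc7l, 1.18) and 5 lay below 0. The other 35 had medians of 1.80, 1.89 and 1.82, with 22 called higher at each time and 4, 3 and 3 lower. Under total counts their medians were 3.21, 2.99 and 2.77. Across the 43 genes, Spearman's rho between that share and the ratio was -0.47, -0.54 and -0.52. Across 11175 protein-coding genes it was -0.47, -0.48 and -0.47. These are descriptions over genes that share the same libraries, and genes are not independent replicates. Among protein-coding genes with under 10% of single-transcript bases in principal exons the median at 0 h was 1.47 (4368 genes), and among those with 90% to 100% it was -2.11 (2395 genes). The 43 genes ran in the same direction as the whole table, and the part of the counted bases in these ratios was not tested. Of the 35 genes with under 50% of these bases in principal exons, 11 lay below 0 at 0 h. Among them were Hnrnpa3 (-1.95, -1.23 and -0.91 at 0, 12 and 24 h, with 0% of these bases in principal exons), Ptbp1 (-1.67, -0.98 and -1.24, with 0%) and Sf3b2 (-1.59, -1.66 and -1.82, with 8.61%). Principal introns held 2.25% of these bases in Hnrnpa3, 78.3% in Ptbp1 and 91.4% in Sf3b2.

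**Figure D4:**
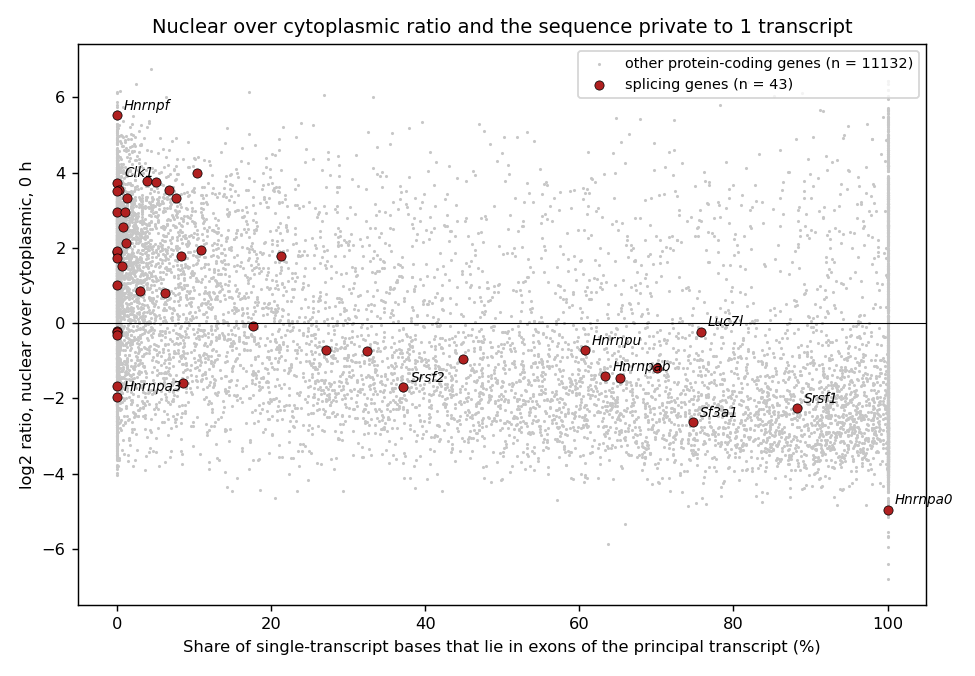
Log2 ratio of nuclear to cytoplasmic RNA at 0 h against the percentage of a gene's single-transcript bases that lie in exons of its principal transcript, for the 43 splicing genes (red) and 11132 other protein-coding genes (grey). Most red points near 0% lie above the zero line, and all 8 beyond 50% lie below it, of which 5 do so under total counts.

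The nuclear-to-cytoplasmic ratio itself changed by 2-fold or more in a few genes. At 12 h against 0 h, 1 of 43 shifted toward the nucleus and 2 toward the cytoplasm, while 10.8% and 6.1% of 16544 genes compared did so. At 24 h, 2 shifted toward the nucleus and 3 toward the cytoplasm, against 8.8% and 7.68% of 16813 genes. Among protein-coding genes, 11.4% shifted toward the nucleus and 4.73% toward the cytoplasm at 12 h, and 9.29% and 5.61% at 24 h. The medians of the 43 were -0.00 and -0.09, against 0.30 and 0.19 over all genes and 0.38 and 0.32 over protein-coding genes. Total counts moved the median over all genes by -0.32 and -0.46 and the share of higher genes among calls to 29.3% and 10.1%, against 63.9% and 53.4%. On the log2(TPM + 1) scale the medians of the genes were 0.19 and -0.26, and that of all genes moved by -0.31 at 24 h, with 25.9% of calls higher.

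Hnrnpa0 shifted toward the nucleus, by 1.10 (0.99 to 1.22) at 12 h and 1.61 (1.5002 to 1.72) at 24 h. Its cytoplasmic level in the time comparison stayed at 814, 767 and 766 CPM, so the shift came with the higher nuclear level. Under total counts the 12 h shift was 0.78, under 2-fold. Sf3a1 shifted by 1.00 (0.88 to 1.12) at 12 h and 1.00 (0.88 to 1.11) at 24 h, just under the call. Hnrnpa3 shifted by 0.73 (0.66 to 0.80) and 1.04 (0.97 to 1.11), with a lower cytoplasmic level. Its 24 h shift was 0.58 under total counts and 0.88 on the log2(TPM + 1) scale. Ddx5 had 0.73 and 0.82, and Hnrnpr 0.84 at 12 h.

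Shifts toward the cytoplasm were found in Srsf7, with -1.06 (-1.91 to -0.22) at 12 h and -1.47 (-2.23 to -0.70) at 24 h, in Hnrnpc at 12 h (-1.16, -1.95 to -0.37), and in Hnrnph1 at 24 h (-1.82, -2.46 to -1.17). Hnrnph1 had -0.96 (-1.69 to -0.22) at 12 h. Hnrnpf had -3.04 (-6.13 to 0.05) at 12 h and -3.45 (-6.47 to -0.43) at 24 h, on 1 cytoplasmic read at 0 h. U2af1 had -0.99 (-1.43 to -0.56) at 24 h. Srsf7 had shifts of -0.57 and -0.87 on the log2(TPM + 1) scale. In Hnrnph1 the nuclear level fell, while cytoplasmic mean counts of 14.3, 8.33 and 13.7 are too few to show a level course. In Srsf7 and in Hnrnph1 the cytoplasmic count was low at every time.

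A list of 131 other splicing genes was read in the same comparisons. In nuclei 4 of 123 compared were called higher and 0 lower at 12 h, and 4 and 0 at 24 h, with none called between 12 and 24 h. The 3.25% called higher at either time compares with 7.92% and 7.88% of all genes. Below 0 in nuclei lay 62 of the 123 at 12 h and 80 at 24 h, with medians of -0.003 and -0.16. Sf3b4, a U2 snRNP subunit, was at 200 CPM in nuclei at 12 h against 78.6 CPM at 0 h (log2 ratio 1.35, 1.26 to 1.44). Pcbp1, a poly(C)-binding hnRNP with no intron, was at 457 CPM at 24 h against 195 CPM at 0 h (1.23, 1.17 to 1.29). Snrpd2, a core Sm protein, was higher at 12 h (1.15), Dhx38, a spliceosomal helicase, at 24 h (1.05), and the U2 snRNP subunit Sf3b5 at both times (1.13 and 1.14). These 5 had 53.6% to 100% of their single-transcript bases in principal exons.

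In cytoplasm 7 of 115 of these other genes were called higher and 5 lower at 12 h, 4 and 6 at 24 h, and 0 and 1 between 12 and 24 h. The shares called higher, 6.09% and 3.48%, compare with 11.7% and 10.4% of all genes, and those called lower, 4.35% and 5.22%, with 8.99% and 6.71%. Hnrnpd, which promotes decay of AU-rich mRNAs, was at 13.0 CPM at 12 h and 14.5 CPM at 24 h against 38.9 CPM at 0 h (log2 ratios -1.58 and -1.42). Qk, a regulator of splicing and RNA stability, had -1.36 and -1.02, Celf2 -1.27 and -1.23, and the cold-inducible Rbm3 -1.14 at 24 h. Sf3a2, a partner of Sf3a1, had 1.70 and 1.32, and Cwc27 1.22 at 12 h. Between fractions, 57 of 124 were called higher and 38 lower in nuclei at 0 h, 55 and 34 at 12 h, and 55 and 33 at 24 h, or 44.4% to 46.0% higher against 45.7% to 47.5% of all genes. Pcbp1 was lowest at 0 h (-4.00), and Ptbp2, Mbnl1 and Ddx17 were at 3.89, 3.76 and 3.70. The ratio shifted toward the nucleus in 7 and toward the cytoplasm in 5 at 12 h, and in 9 and 6 at 24 h. These are 5.65% and 4.03% of the list, against 10.8% and 6.1% of all genes, at 12 h, and 7.26% and 4.84%, against 8.8% and 7.68%, at 24 h. The shifts were 1.34 and 1.56 for the helicase Snrnp200 and -2.40 and -1.84 for Rbm17.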

How the data were processed

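Nuclear and cytoplasmic RNA of BV2 cells was sequenced in 18 libraries, 3 in each of 6 groups. Per the submitters' processing notes, HISAT2 2.2.0, featureCounts and DESeq2 were used with GRCm38, and the sources used here do not give the annotation release. The count table deposited by the authors gives 1 value per gene and group. Every value times 3 was whole within 0.001, while 28.1% to 34.9% per group were not whole, so the authors' values were read as mean counts of 3 libraries and handled like expected counts. The authors' deposited TPM values were used as an alternative. For genes with a mean count of at least 100, the length behind TPM matched, within 0.1%, the total length of every annotated transcript for 6935 of 7104 genes (97.6%) and for 40 of 40 of the genes described. Deposited per-sample columns left unused numbered 0.

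Single libraries were not analysed here, and the planned test for replicated counts was replaced by log2 ratios with counting intervals. Group totals were scaled by TMM (trimmed mean of M-values, with 30% of log ratios and 5% of means trimmed). Scaling was done within a fraction for time comparisons and over all 6 groups for ratios between fractions. A gene was compared where its CPM in at least 1 group reached 10 mean counts at the median depth. Intervals are exact Clopper-Pearson from the summed reads (95%; a normal approximation for a shift of the ratio) and cover counting error only, since PCR reads are not independent molecules. A call needed 2-fold and an interval excluding 0. The floor was 3 reads over a group. The method was tested on simulated data. The software was matplotlib 3.10.9, scipy 1.17.1, pandas 2.3.3 and numpy 2.4.6 under Python 3.11.15.

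Symbols, transcript classes and single-transcript bases (exonic bases held by exactly 1 transcript over all genes and both strands) came from GENCODE M21, which held 55227 of the 55487 identifiers. The genes, the 5 role groups and the list of 131 were chosen with earlier results of these data known. Named are all called genes, the 4 highest and 4 lowest ratios per comparison, Clk1 to Clk4, Srsf1 to Srsf7, and up to 6 called genes of the wider list per comparison with at least 5 CPM. Of the wider list's ratios between fractions and their shifts, a selection is printed. Alternatives were median-of-ratios size factors, total counts, log2(TPM + 1), no filter and 1.5-fold. A restriction to genes with mostly exonic single-transcript bases was added after seeing the data.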

Additional observations from a re-analysis of the deposited data

Results flagged for a closer look

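For 6 of the 43 genes compared, the change over time differed between nuclei and cytoplasm by at least 2-fold beyond counting error at 12 h, at 24 h or at each. The share of all genes that did so at either time is not given. At 12 h, 2.33% of the 43 passed this limit toward the nucleus and 4.65% toward the cytoplasm, against 10.8% and 6.1% of all genes. At 24 h these were 4.65% and 6.98%, against 8.8% and 7.68%. These differences were not tested against the spread between libraries. The nuclear-to-cytoplasmic ratio of Hnrnpa0 shifted by 1.10 at 12 h and 1.61 at 24 h, and that of Hnrnpa3 by 1.04 at 24 h, toward the nucleus. That of Srsf7 shifted by -1.06 at 12 h and -1.47 at 24 h, that of Hnrnpc by -1.16 at 12 h, that of Hnrnph1 by -1.82 at 24 h and that of Hnrnpf by -3.45 at 24 h, toward the cytoplasm. Cytoplasmic mean counts were at most 15.7 in Srsf7, 12.3 in Hnrnpc, 14.3 in Hnrnph1 and 3 in Hnrnpf, and their part in the shifts was not tested.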

How the results depend on the processing

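On the log2(TPM + 1) scale a call needed 2-fold alone, with no interval. That scale held 41 of the 43 genes in nuclei and 33 of the 42 in cytoplasm. At 1.5-fold, 2999 of all 17295 genes compared were called higher and 2606 lower in nuclei at 12 h. At 24 h these were 2967 and 2509. In cytoplasm they were 2295 and 2343 of 11751 at 12 h, and 2067 and 2012 at 24 h. Shifts at 1.5-fold numbered 4204 toward the nucleus and 1403 toward the cytoplasm of 16544 genes at 12 h. At 24 h they were 3916 and 1858 of 16813. On the log2(TPM + 1) scale all-gene calls in nuclei were 1011 higher and 2069 lower at 12 h, and 769 and 3368 at 24 h. In cytoplasm at 12 h they were 998 and 3241. Counts of the genes described that were called, in either direction, moved by over 1.5 times as follows. In nuclei at 12 h against 0 h, 1 gene was called, against 3 on the log2(TPM + 1) scale and 8 at 1.5-fold. At 24 h against 0 h, 4 were called, against 11 and 9. From 12 to 24 h none was called, and 1 without the filter on low counts. In cytoplasm at 12 h, 1 was called, against 6 on the log2(TPM + 1) scale, 3 without the filter and 7 at 1.5-fold. At 24 h, 4 were called, and 9 at 1.5-fold. From 12 to 24 h, 1 was called, against 0 on the log2(TPM + 1) scale and 2 at 1.5-fold. For the shift of the ratio, 3 were called at 12 h, against 6 under total counts, 5 on the log2(TPM + 1) scale and 13 at 1.5-fold, and 5 at 24 h, against 12 under total counts and 14 at 1.5-fold. A further restriction kept the 8 genes compared with at least 50% of their single-transcript bases in principal exons. Among them calls numbered 0, 1 and 0 in nuclei at 12 h, 24 h and between them, and 0, 0 and 0 in cytoplasm. They numbered 6, 6 and 6 between fractions at 0, 12 and 24 h (against 32, 31 and 31 of 43), and 1 and 1 for the shifts. This restriction was chosen after seeing the data and tests fewer genes. Elsewhere the cause was not tested.

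Over all genes, calls lower in nuclei numbered 1148 at 12 h and 995 at 24 h, against 1863 and 2056 under total counts and 2069 and 3368 on the log2(TPM + 1) scale. Calls lower in cytoplasm numbered 1056 and 789, against 3241 and 2041 on the log2(TPM + 1) scale. Calls lower in nuclei than in cytoplasm at 0, 12 and 24 h numbered 5854, 5245 and 5175, against 2923, 2616 and 2766 under total counts. Shifts toward the nucleus numbered 1789 at 12 h and 1479 at 24 h, against 700 and 317 under total counts. Shifts toward the cytoplasm numbered 1009 and 1292, against 1687 and 2816. At 1.5-fold most, and without the filter some, of the counts over all genes were higher by over 1.5 times.

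The nuclear-to-cytoplasmic ratio changed side for Srsf10 at 0 h (0.22 under total counts) and for Srsf6 at 12 h (0.0698 under total counts and 0.0954 on the log2(TPM + 1) scale). No other single ratio that was called changed side. The genes called lower in nuclei than in cytoplasm at all 3 times numbered 8, against 10 with median-of-ratios size factors and 1 each under total counts and on the log2(TPM + 1) scale; those called higher numbered 21, against 19, 26 and 20. No paired analysis was possible because each group has 1 column, the mean of its 3 libraries, and for the same reason no replicate could be left out. Depth limits Hnrnpf, Hnrnpc, Srsf4 and Srsf7, whose cytoplasmic intervals are wide, and Prpf8 and Srsf9, whose counts were too low to compare. It also limits Hnrnph1 and Srrm1, with cytoplasmic mean counts of 14.3, 8.33 and 13.7 and of 12.7, 11.7 and 16.7 at 0, 12 and 24 h.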
